A study of Mus musculus with 6 samples.

Results

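Adseverin (Scin) was measured together with 9 genes whose proteins cut actin filaments or close their ends: gelsolin (Gsn), the capping protein CapG (Capg), the cofilins Cfl1 and Cfl2, destrin (Dstn), the capping protein subunits Capza1, Capza2 and Capzb, and twinfilin 1 (Twf1). These 10 genes were taken by symbol from the 55401 genes of a read count table, and all 10 passed the filter on low counts that left 16260 genes for testing. RNA came from knee joint articular cartilage of mice aged 10 weeks, in 3 adseverin knockout samples (CKO 1 to 3) and 3 wild-type samples (CTRL 1 to 3). Mice of both groups had been given tamoxifen, 1.5 mg per 10 g of body weight each day for 5 days starting at 8 weeks of age. The sources used here do not give the Cre driver or the exons it removes. Nothing in the labels says whether each sample came from its own animal, so a p-value here reflects only how far these samples scatter, part of which may be technical.

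The libraries held 22664828 to 31014996 reads in CKO and 23018642 to 27576134 reads in CTRL. All 10 chondrocyte markers were detected, and their summed level was 29790 to 36150 CPM (read counts scaled to library size, with TMM factors) in CKO and 27740 to 28900 CPM in CTRL. The largest part was Col2a1, at 15910 to 20600 CPM in CKO and 14450 to 15300 CPM in CTRL. Of the 10, 9 were higher in CKO, while Acan was lower, at 707.8 to 988.7 CPM in CKO and 1273 to 1440 CPM in CTRL. Superficial zone markers summed to 26650 to 28110 CPM in CKO and 29180 to 33830 CPM in CTRL, with 4 of 5 lower in CKO. None of either list passed the edgeR threshold. Markers of other cells of the joint were present too. Those of osteoblasts and osteocytes summed to 29760 to 33220 CPM in CKO and 26270 to 29480 CPM in CTRL. Most of that sum was Ibsp alone, at 24360 to 30050 CPM in CKO and 23180 to 25510 CPM in CTRL. Such sums therefore do not give the share of each cell type in the tissue. CTRL 2 stood apart: it had the highest sum of adipocyte, pericyte and smooth muscle, and skeletal muscle markers (the last at 26.07 to 258.9 CPM in CKO and 32.34 to 1609 CPM in CTRL), and with CTRL 3 it lay at the ends of the first principal component. Erythroid markers summed to 2294 to 3416 CPM in CKO and 2141 to 2460 CPM in CTRL. Of these markers 8 of 8 had a log2 fold change above 0, with a median of 0.88. In edgeR 4 had an unadjusted p under 0.05, although none passed after adjustment. Of all 16260 genes tested, 8229 had a log2 fold change above 0 and 575 had such a p with CKO higher. In bulk tissue, fewer cells of a type and less RNA per cell cannot be told apart.

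Actin filaments grow mainly at one end, the barbed end. Gelsolin family proteins, when they bind calcium, cut filaments and stay on the new barbed end as a cap, although CapG caps without cutting. Cofilins and destrin cut and dismantle older filaments without a need for calcium, and LIM kinases switch them off by phosphorylating the serine of codon 3. Capping protein, a dimer of an alpha subunit (Capza1 or Capza2) and the beta subunit Capzb, closes barbed ends in nearly all cells, and twinfilin binds both actin monomers and capping protein. Chondrocytes hold their actin largely as a cortical shell, and the state of this shell is known to go with the cartilage phenotype of cultured cells.

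Scin was the only one of the 10 genes that passed the test, and it fell. It encodes adseverin, also called scinderin, a calcium-activated severing protein known from secretory cells and from mouse osteoclasts. Scin gave 39.1, 29.9 and 29.4 CPM in CKO, against 186, 185 and 219 CPM in CTRL. The highest CKO library was far below the lowest CTRL library. The log2 fold change, CKO over CTRL, was -2.59 ± 0.14 (SE, n = 3 each), which is 16.6% of the CTRL level with a 95% interval of 13.4% to 20.7% (adjusted p = 0.000659 by edgeR's quasi-likelihood test with Benjamini-Hochberg adjustment). Of all genes tested, 0.00615% passed this threshold, which is Scin alone. The remaining signal rested on 883, 908 and 703 reads in CKO, against 5232, 4227 and 5771 reads in CTRL, so Scin reads were counted in every knockout library. The counts cover the whole gene, with reads from outside the deleted exons included, and all cells of the sample. They do not place reads on exons or in cell types, and the source of the remaining reads was not tested. Leaving out any 1 library gave log2 fold changes between -2.73 and -2.5 (-2.64 without CTRL 2).

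Scin lies on the minus strand of GRCm38 chromosome 12 (chr12:40059769-40134228). Its measured neighbours Arl4a, Etv1 and Ifrd1 did not share the size of its drop, and Gm7008 was too weak to judge. Arl4a, a small GTPase gene on one side, gave 74.9, 61.0 and 59.5 CPM in CKO and 58.6, 82.3 and 81.6 CPM in CTRL, and Etv1, a transcription factor gene beyond it, averaged 19.8 ± 6.16 CPM in CKO and 18.9 ± 2.32 CPM in CTRL (SD, n = 3 each). On the other side, Ifrd1 gave 37.0, 44.2 and 40.2 CPM in CKO and 45.9, 47.1 and 44.3 CPM in CTRL, without overlap but with an edgeR adjusted p of 0.858, and the predicted gene Gm7008 stayed under 1 CPM in all 6 libraries. Osteoclast markers, summed because mouse osteoclasts use adseverin, ran from 850.8 to 1647 CPM in CKO and from 865.7 to 2078 CPM in CTRL, so the groups overlapped widely. Of these markers 6 of 7 had a log2 fold change below 0, where 49.4% of all genes tested did. Their median was -0.171, and none passed in edgeR. Their part in the Scin values was not tested.

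The genes nearest to Scin in profile over the 6 libraries were Kcnj2, Rapgef5 and Socs3. Nearness was the root mean square difference of log2(CPM + 1), each gene centred on its own mean, and was 0.522, 0.656 and 0.668 in that order. Socs3, a feedback inhibitor of cytokine signalling, gave 34.4, 15.8 and 21.9 CPM in CKO and 55.8, 64.6 and 55.2 CPM in CTRL. Its log2 fold change of -1.29 ± 0.25 did not pass in edgeR (adjusted p = 0.533, n = 3 each) and passed in DESeq2 (adjusted p = 1.59e-04), which called 0.538% of the genes it tested. Kcnj2, an inward rectifier potassium channel gene, gave 0.398, 0.198 and 0.167 CPM in CKO and 3.34, 1.89 and 3.12 CPM in CTRL, and its edgeR adjusted p was 0.373 against 2.14e-04 in DESeq2. Rapgef5 stayed under 1 CPM in CKO and at 2.05 to 3.86 CPM in CTRL, with an edgeR adjusted p of 0.689. These 3 genes were picked for their likeness to Scin, so their differences are a description.

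Scin and Gsn encode proteins of the same domain plan, and their coding sequences share no long identical run. Over 2132 aligned coding bases 64.3% were identical, and the longest run they share is 17 bases. That run is printed below in capitals with 20 bases on either side, because it is the place where the knocked-out gene and its most abundant relative are hardest to separate. The sequences are spliced coding sequence from GENCODE M21 transcripts on GRCm38, given 5′ to 3′ on the strand of each gene; the Scin stretch spans chr12:40073424-40076944 (minus strand) and the Gsn stretch chr2:35301549-35302539 (plus strand).
Scin: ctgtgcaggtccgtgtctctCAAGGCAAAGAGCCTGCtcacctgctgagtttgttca
Gsn: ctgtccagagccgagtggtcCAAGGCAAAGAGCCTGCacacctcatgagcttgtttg
No 50-base window of Gsn or Capg occurred in another annotated gene, and 0.87% of those of Scin did.

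**Figure D1:**
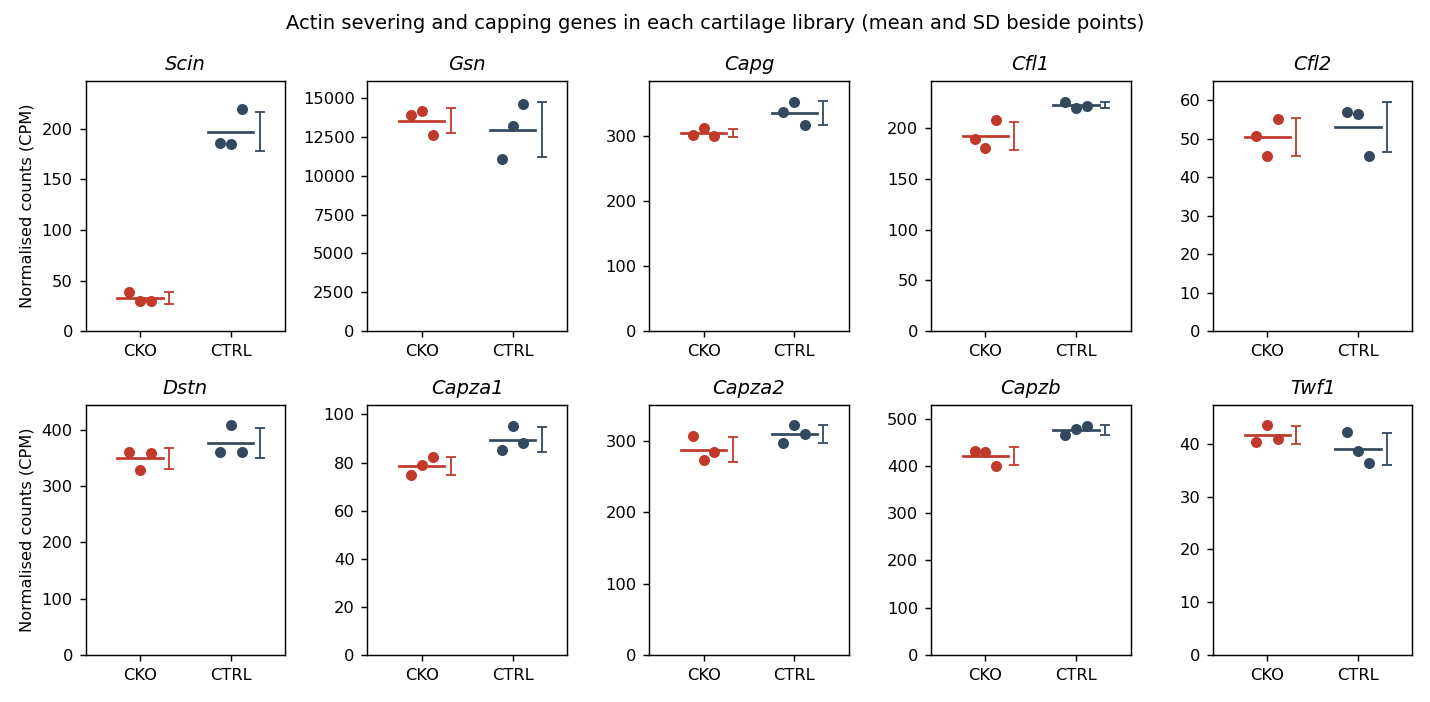
Normalised counts (CPM, vertical axes from 0) of the 10 genes in each library, CKO left and CTRL right, with the group mean as a line and the SD (n = 3) beside the points. Scin was at 29.4 to 39.1 CPM in CKO and 185 to 219 CPM in CTRL, while the groups lay close together or overlapped for the other 9 genes.

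The gene of gelsolin, which cuts and caps filaments as adseverin does, was by far the most abundant of the 10 per exon length. Its counts are per gene and from bulk tissue, so they do not separate transcript forms or cell types. Gsn (chr2:35256380-35307892, plus strand) gave 13891, 14141 and 12610 CPM in CKO and 11100, 13196 and 14592 CPM in CTRL. CTRL 1 was the lowest library and CTRL 3 the highest, with the CKO libraries between them. The log2 fold change was 0.06 ± 0.10 (SE, n = 3 each; edgeR adjusted p = 0.961), and its 95% interval of -0.17 to 0.30 runs from 88.6% to 123% of the CTRL level. Without CTRL 1 it was -0.0412, so its sign rests on that library.

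Capg (chr6:72544391-72562983, plus strand) encodes CapG, the gelsolin relative that caps without cutting and is plentiful in macrophages. It gave 301.6, 312 and 299.6 CPM in CKO and 337, 352 and 316 CPM in CTRL. The groups did not overlap, with CKO lower, but the log2 fold change of -0.14 ± 0.08 did not pass (SE, n = 3 each; edgeR adjusted p = 0.82; 95% interval -0.31 to 0.03). Summed macrophage markers were lower in CKO as well, at 538.8 to 615.8 CPM in CKO and 665.1 to 843.6 CPM in CTRL. Of these markers 10 of 10 had a log2 fold change below 0, where 49.4% of all genes tested did, although none passed. Their part in the Capg values was not tested.

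The remaining relatives also stayed near their CTRL levels or were too weak to judge. Vill, which encodes a villin-like protein, gave 118, 144 and 120.5 CPM in CKO and 128, 118 and 120 CPM in CTRL (log2 fold change 0.07 ± 0.10). Flii, which encodes flightless I, a gelsolin relative that also binds nuclear receptors, had a log2 fold change of -0.01 ± 0.11. Svil, the gene of the membrane-linked supervillin, had one of -0.07 ± 0.20. Avil, encoding the advillin of sensory neurons, gave 2.30, 1.51 and 2.18 CPM in CKO and 1.6, 0.878 and 1.03 CPM in CTRL, and the 95% interval of its log2 fold change, -0.32 to 1.85, leaves the direction undecided. Vil1, the villin of intestinal brush borders, had 18 reads in all 6 libraries and was not tested. In the family as a whole, 1 of 7 tested genes passed, Scin, and it was lower.

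Adding the family up shows how small a share of its transcripts Scin was in both groups. Levels of different genes were compared as CPM per kilobase of merged exons. On that scale Scin made up 0.285%, 0.214% and 0.235% of the family sum in CKO and 1.65%, 1.4% and 1.5% in CTRL. Gsn made up 96.0% ± 0.171 in CKO and 94.3% ± 0.766 in CTRL (SD, n = 3 each). The family sum was 4576, 4662 and 4168 CPM per kilobase in CKO and 3760, 4423 and 4865 in CTRL, so the groups overlapped and the CKO mean was 103% of the CTRL mean. For each unit of Scin there were 398 ± 56.5 units of Gsn in CKO and 62.5 ± 5.51 in CTRL (SD, n = 3 each). These are transcript levels per gene in bulk tissue. They do not separate the transcript forms of a gene or the cell types, and protein was not measured.

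**Figure D2:**
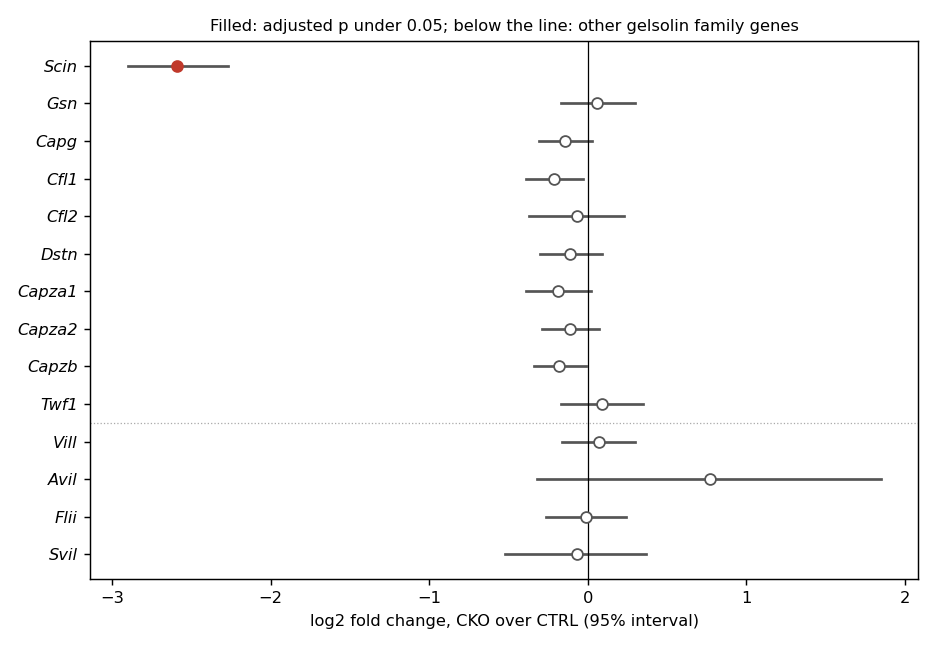
Log2 fold changes, CKO over CTRL, with 95% intervals, for the 10 genes (above the dotted line) and the 4 other tested gelsolin relatives. Scin lies at -2.59, and the other 9 genes lie between -0.21 and 0.09.

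The cofilin group comprises cofilin 1, the non-muscle form; cofilin 2, the form of muscle; and destrin, also called actin depolymerizing factor. Their first 60 coding bases are shown because they hold the serine codon through which LIM kinases inactivate the proteins and slingshot phosphatases reactivate them. It is codon 3, counted from the start codon, and stands in capitals. The sequences are spliced GENCODE M21 coding sequence on GRCm38, from chr19:5490600-5492553 (Cfl1, plus strand), chr12:54861777-54862746 (Cfl2, minus strand) and chr2:143915645-143938441 (Dstn, plus strand).
Cfl1: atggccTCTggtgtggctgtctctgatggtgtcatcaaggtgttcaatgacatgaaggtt
Cfl2: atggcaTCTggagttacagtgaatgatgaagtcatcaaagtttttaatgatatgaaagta
Dstn: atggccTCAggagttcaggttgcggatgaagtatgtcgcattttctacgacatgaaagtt
All carry a serine codon there, and over the whole coding sequence Cfl1 matched Cfl2 at 71.5% and Dstn at 68.7% of aligned bases.

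None of the cofilins passed the threshold. Cfl1 (chr19:5490455-5495201) gave 189, 181 and 208 CPM in CKO and 226, 219.6 and 222 CPM in CTRL. Each CKO library was below each CTRL library. The log2 fold change was -0.21 ± 0.08, or 86.5% of the CTRL level (SE, n = 3 each; edgeR unadjusted p = 0.0304, adjusted p = 0.715; 95% interval -0.39 to -0.03). Of the 50-base windows of Cfl1, 18.31% also occur in another annotated gene, mainly the overlapping Snx32 and the pseudogene Gm6180, and the sources used here do not say how such reads were counted, so its values are uncertain.

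Dstn, the most abundant of the trio, gave 360.4, 328.5 and 359 CPM in CKO and 361.5, 408 and 359.9 CPM in CTRL. The groups met at about 360 CPM, and the log2 fold change was -0.11 ± 0.08 (SE, n = 3 each; edgeR adjusted p = 0.894). Cfl2 gave 50.8, 45.4 and 55.2 CPM in CKO and 57.0, 56.4 and 45.4 CPM in CTRL, and CTRL 3 was as low as the lowest CKO library. Its log2 fold change was -0.07 ± 0.13 (SE, n = 3 each; edgeR adjusted p = 0.965). CTRL 2, the library with the most skeletal muscle marker RNA, was close to CTRL 1 in its value for this muscle form.

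In the mix of the trio, the share of each gene overlapped between the groups. Per kilobase of exon, Dstn supplied 68.8% ± 1.04 in CKO and 67.6% ± 1.61 in CTRL, Cfl1 25.4% ± 0.862 in CKO and 26.9% ± 1.57 in CTRL, and Cfl2 5.8% ± 0.256 in CKO and 5.56% ± 0.572 in CTRL (SD, n = 3 each). The sum of the trio was 271, 249 and 278 CPM per kilobase in CKO and 286, 308 and 280.3 in CTRL, so the CKO mean was 91.3% of the CTRL mean and the groups did not overlap, by a narrow gap.

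Regulators that act on codon 3 and partners of cofilin did not pass either. In edgeR, 0 of 14 such genes passed, 0 had an unadjusted p under 0.05, and 0 passed in DESeq2. Of these 14 genes, 1 had an unadjusted edgeR p under 0.05 without CTRL 2 and 1 without CKO 1. Their median log2 fold change was -0.115 (-0.0776 to -0.124 with 1 library left out), with 9 below 0, against a median of 0.00369 and 49.4% below 0 over all genes tested. Ssh1, a slingshot phosphatase that reactivates cofilin, gave 20.2, 20.5 and 21.8 CPM in CKO and 17.7, 17.3 and 17.8 CPM in CTRL, without overlap (log2 fold change 0.24 ± 0.13, edgeR adjusted p = 0.812, n = 3 each). Its relative Ssh2 pointed the other way, at 20.8, 21.4 and 20.8 CPM in CKO and 27.9, 20.7 and 33.3 CPM in CTRL, with CTRL 2 just below the CKO libraries (-0.38 ± 0.18). The kinase gene Limk2 averaged 40.3 ± 3.14 CPM in CKO and 36.4 ± 6.40 CPM in CTRL, and Limk1 about 2.03 CPM in both groups; these kinases were picked after their values were seen. Wdr1, encoding the cofilin helper AIP1, gave 336, 353 and 285 CPM in CKO and 363, 354 and 354 CPM in CTRL (-0.14 ± 0.09, and -0.0484 without CKO 3). The phosphorylation of the cofilins was not measured.

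Capping protein is the general barbed-end cap, and its alpha subunits come from a pair of closely related genes. Capza1 and Capza2 matched at 76.8% of aligned coding bases, and the longest run they share is 26 bases, shown in capitals with 20 bases on either side, since reads confined to it could come from either gene. The stretches are spliced GENCODE M21 coding sequence on GRCm38, from chr3:104828559-104834123 (Capza1, minus strand) and chr6:17660802-17662137 (Capza2, plus strand).
Capza1: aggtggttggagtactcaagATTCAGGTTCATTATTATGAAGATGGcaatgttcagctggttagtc
Capza2: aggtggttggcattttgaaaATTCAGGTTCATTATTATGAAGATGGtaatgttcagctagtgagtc
A much longer overlap ties Capza1 to the pseudogene Gm3608, and 64.45% of the 50-base windows of Capza1 occur in another annotated gene. Gm3608 itself was given 1202 reads over the 6 libraries, beside 12933 for Capza1, so the Capza1 values are uncertain.

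The 3 subunit genes each averaged lower in CKO, and none passed the threshold. Capzb (chr4:139192899-139291818, plus strand), the only beta subunit gene, gave 432.6, 430.6 and 399.8 CPM in CKO and 465, 478 and 485 CPM in CTRL. The groups were apart, the log2 fold change was -0.18 ± 0.07, and the CKO level was 88.4% of the CTRL level (SE, n = 3 each; edgeR unadjusted p = 0.0384, adjusted p = 0.726; 95% interval -0.34 to -0.01). Capza1 gave 74.9, 78.8 and 82.3 CPM in CKO and 85.0, 95.3 and 88.1 CPM in CTRL, again apart (log2 fold change -0.19 ± 0.09, edgeR adjusted p = 0.793, n = 3 each). Capza2 gave 306.6, 273 and 285 CPM in CKO and 298, 322.5 and 310 CPM in CTRL, and CKO 1 lay inside the CTRL range (-0.11 ± 0.08, edgeR adjusted p = 0.883, n = 3 each).

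In the balance of the subunits, the groups overlapped. Per kilobase of exon, the ratio of both alpha genes to Capzb was 0.547 ± 0.0321 in CKO and 0.529 ± 0.0203 in CTRL, and Capza2 made up 70.1% ± 2.01 of the alpha sum in CKO and 69.0% ± 0.46 in CTRL (SD, n = 3 each). Capza3, the alpha subunit of male germ cells, had 0 reads in all 6 libraries.

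Twf1 (chr15:94577951-94589889, minus strand) encodes twinfilin 1, which binds actin monomers and caps barbed ends in mouse. It gave 40.3, 43.5 and 40.9 CPM in CKO and 42.3, 38.6 and 36.3 CPM in CTRL. CTRL 1 lay inside the CKO range, and the log2 fold change was 0.09 ± 0.11 (SE, n = 3 each; edgeR adjusted p = 0.933). The other twinfilin gene, Twf2, had a log2 fold change of 0.08 ± 0.11, and Dbnl, encoding the drebrin-like protein with the same actin-binding fold, one of -0.04 ± 0.10. Of the Twf1 windows, 15.9% occur in another annotated gene, the pseudogene Gm4887 or the overlapping Irak4, so the Twf1 values are uncertain.

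Other barbed-end cappers and the regulators of capping protein gave no passing gene. Of 12 tested cappers 0 passed in edgeR and 0 in DESeq2. In edgeR 1, Capzb, had an unadjusted p under 0.05, as did 6.5% of all genes tested (2.96% with CKO lower). That count was 0 with no filter, with the replicate block and without CKO 3. It was 1 without CTRL 2, CTRL 3 or CKO 2, but the gene was then not Capzb. The log2 fold changes of the list ran from -0.19 for Capza1 to 0.96 for Eps8l1, and the median was 0.0259, with 6 above and 6 below 0 (-0.0308 without CTRL 2 to 0.0823 without CKO 3). Eps8l1, a relative of the capper Eps8, gave 5.45, 2.24 and 4.23 CPM in CKO and 1.28, 2.06 and 2.77 CPM in CTRL (log2 fold change 0.96 ± 0.46, edgeR adjusted p = 0.793, n = 3 each). Add1, encoding the membrane skeleton capper alpha-adducin, had a log2 fold change of 0.11 ± 0.11, and Eps8l2, another Eps8 relative, one of 0.07 ± 0.10. Of the capping protein regulators 0 of 7 tested passed, 0 had an unadjusted p under 0.05 and 0 passed in DESeq2. Of these 7 genes, 1 had an unadjusted edgeR p under 0.05 without CTRL 3 and 1 without CKO 3. Carmil1, whose protein strips capping protein from filament ends, gave 588, 642 and 388 CPM in CKO and 425, 438 and 451 CPM in CTRL, so CKO 1 and CKO 2 were above and CKO 3 below every CTRL library (0.30 ± 0.17, and 0.16 without CKO 2 or 0.49 without CKO 3). Mtpn, encoding the capping protein inhibitor myotrophin, averaged 123 ± 4.07 CPM in CKO and 145 ± 25.9 CPM in CTRL (-0.24 ± 0.13, and -0.11 without CTRL 2 or -0.36 without CTRL 3).

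**Figure D3:**
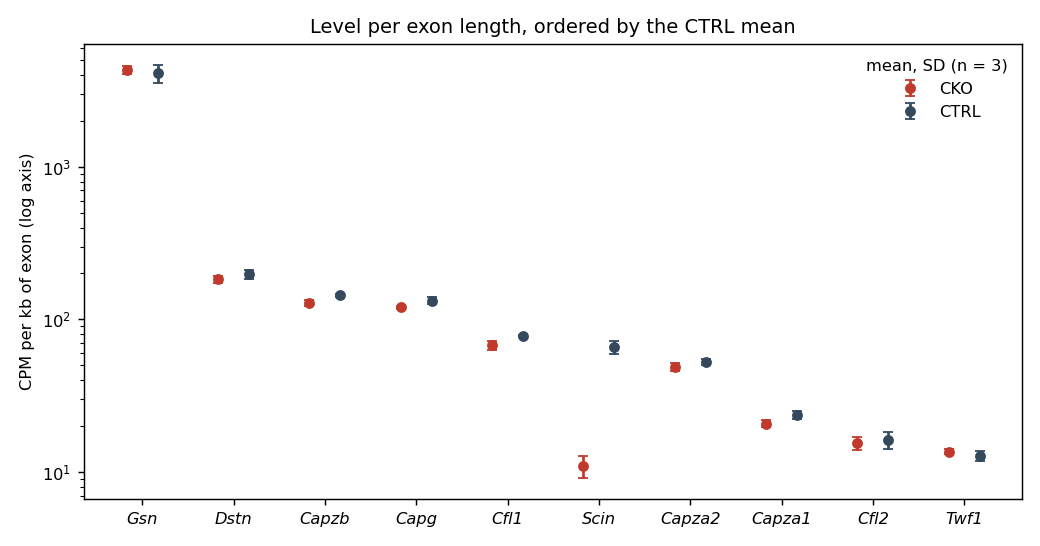
Level per exon length (CPM per kilobase of merged exons, log axis) of the 10 genes, CKO left of CTRL, with mean and SD (n = 3), ordered by the CTRL mean. Scin ranked 10 of 10 in CKO and 6 of 10 in CTRL, and Gsn was highest in both groups.

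Ordered by level per exon length, the 9 genes other than Scin stood in the same order in both groups. In CKO the order was Gsn, Dstn, Capzb, Capg, Cfl1, Capza2, Capza1, Cfl2, Twf1 and Scin. There the neighbours Capzb and Capg overlapped in range, as did Cfl2 and Twf1, and every other neighbouring pair was apart. In CTRL the order was Gsn, Dstn, Capzb, Capg, Cfl1, Scin, Capza2, Capza1, Cfl2 and Twf1, with every neighbouring pair apart. Scin averaged 10.9 ± 1.82 CPM per kilobase in CKO and 65.7 ± 6.45 in CTRL, Gsn 4291 ± 260.3 in CKO and 4106 ± 557 in CTRL, and Dstn, the next after Gsn, 183 ± 9.45 in CKO and 197 ± 14.2 in CTRL (SD, n = 3 each). With the length of the longest transcript or with no length scaling Scin had rank 10 in CKO as before, and rank 7 in CTRL. On both of these scales Capzb came next after Gsn in both groups, so the place of Dstn depends on the length used.

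None of the 9 genes other than Scin passed the test in either direction, and most lay slightly below their CTRL level. In edgeR 0 of 9 passed, and 2 had an unadjusted p under 0.05, Cfl1 and Capzb, both lower in CKO; over all genes tested 6.5% had such a p, 2.96% with CKO lower. This count of 2 fell to 0 without CTRL 2, CTRL 3 or CKO 2 and to 1 without any other library, with the replicate block or with no filter. In DESeq2 and in limma-voom 0 of 9 passed as well. Of the 9, 7 had a log2 fold change below 0 and 2, Gsn and Twf1, above it, and the median was -0.108, against 0.00369 over all genes tested. The median was -0.163 without CTRL 3 and -0.0688 without CKO 2, and lay between these without any other library. The groups did not overlap for 4 of the 9 (Capg, Cfl1, Capza1 and Capzb), with CKO lower in each, where 5.89% of all genes tested had no overlap with CKO lower and 6.41% with CKO higher (12.3% in all). With median-of-ratios scaling this count was 5, Dstn being added, against 6.18% of all genes. The highest upper end of the 95% intervals of the 9 was 0.35 on the log2 scale, for Twf1, and the lowest lower end was -0.39, for Cfl1 and Capza1.

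Actin itself was measured as the substrate of these proteins. Of 10 actins and actin monomer binders 8 were tested, 0 passed in edgeR or DESeq2, and 0 had an unadjusted edgeR p under 0.05. That count was 1 with no filter and without CKO 1 or CKO 2, and 2 with the replicate block and without CKO 3. Yet 8 of 8 were below 0, where 49.4% of all genes tested were, and 7 of 8 without CTRL 2 or CTRL 3. Their median was -0.216 (-0.146 without CTRL 2) against 0.00369 over all genes tested. Actb, the main cytoplasmic actin, gave 1309, 1207 and 1536 CPM in CKO and 1529.5, 1482 and 1525 CPM in CTRL, with CKO 3 above all CTRL libraries (log2 fold change -0.16 ± 0.10, and -0.0888 without CKO 2 or -0.26 without CKO 3). Actg1, the other cytoplasmic actin, averaged 99.1 ± 10.1 CPM in CKO and 114 ± 12.3 CPM in CTRL (-0.21 ± 0.11), and Pfn2, encoding a profilin that loads actin monomers, 66.3 ± 8.93 CPM in CKO and 81.3 ± 14.2 CPM in CTRL (-0.29 ± 0.15). The lowest values belonged to the muscle actins, Acta1 at -1.99 and Acta2 at -1.65, which were highest in CTRL 2, the library with the most muscle marker RNA; fibroblast markers were also lower on median (-0.333, 9 of 10 below 0). What these marker levels contribute to the actin values was not tested.

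At the opposite, pointed end, tropomodulins and leiomodins are the caps. Of 7 such genes 4 were tested, 0 passed in edgeR or DESeq2 and 1, Tmod3, had an unadjusted p under 0.05, as did 6.5% of all genes tested (2.96% with CKO lower). That count was 0 with library sizes alone, with the replicate block and without CTRL 1, CKO 1 or CKO 2. Tmod3, the widely expressed tropomodulin, gave 119, 114 and 138 CPM in CKO and 149, 150.4 and 136 CPM in CTRL (log2 fold change -0.23 ± 0.10, edgeR adjusted p = 0.752, n = 3 each). Tmod4, a tropomodulin of skeletal muscle, gave 1.06, 1.42 and 1.76 CPM in CKO and 0.391, 6.84 and 0.494 CPM in CTRL, so its lower CKO mean came from CTRL 2, and without that library the log2 fold change was 1.66. Among the 10 genes with the cofilin fold, 0 passed in edgeR or DESeq2, and 1, Cfl1, had an unadjusted p under 0.05. That count was 2 without CKO 3 and 0 when any other library was left out. The median of these genes was -0.0178, and ran from -0.101 without CKO 3 to 0.0267 without CKO 1. The median of the pointed-end caps was -0.112, and ran from -0.357 to 0.456 with 1 library left out, the last without CTRL 2.

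**Figure D4:**
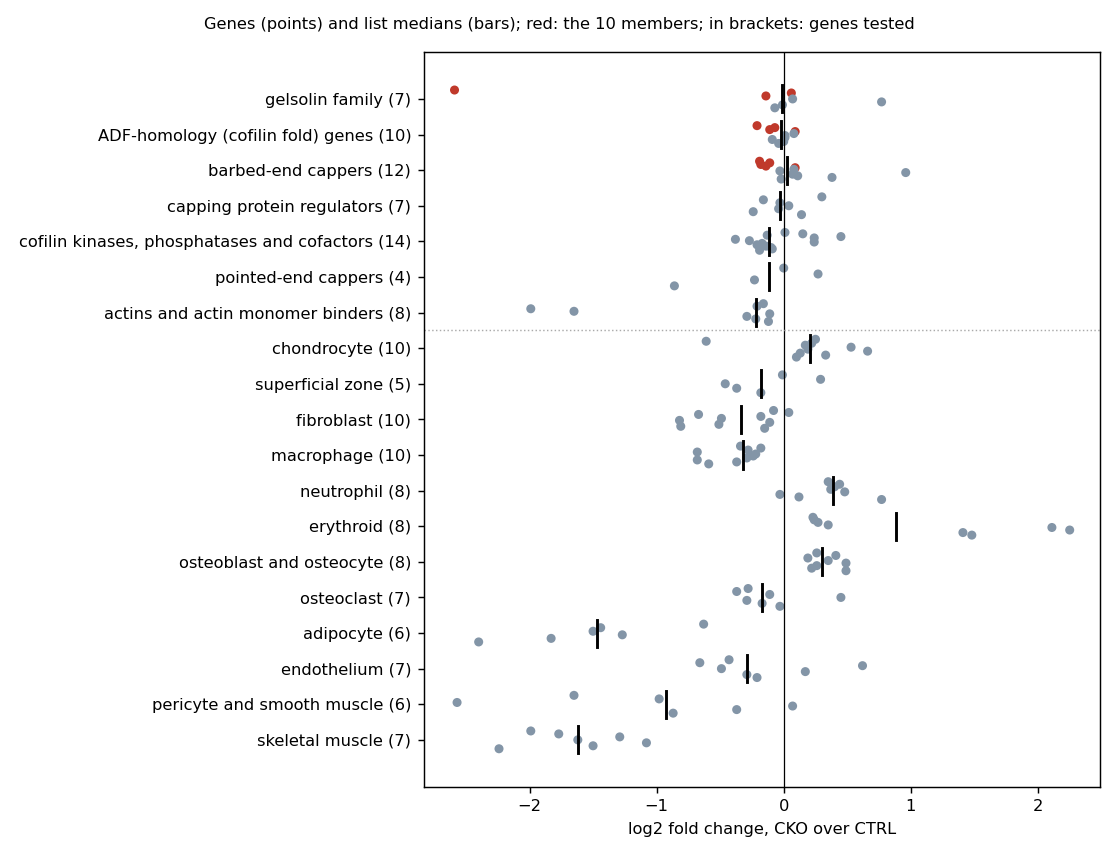
Log2 fold changes, CKO over CTRL, of each tested gene (points) and the median (bars) of 7 actin-related lists (above the dotted line) and 12 cell type marker lists (below it), with the 10 genes in red. Scin at -2.59 stands alone among the actin-related genes other than the muscle actins, all tested macrophage, adipocyte and skeletal muscle markers lie below 0, and all erythroid and osteoblast and osteocyte markers lie above 0. Adipocyte and skeletal muscle sums were highest in CTRL 2. The skeletal muscle sum ran from 26.07 to 258.9 CPM in CKO and from 32.34 CPM to 1609 CPM, in CTRL 2, among the CTRL libraries.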

How the data were processed

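Libraries were made with a full-length cDNA kit for very low RNA input, per the labels' protocols. Tools listed in the submitters' processing notes are featureCounts 2.0.1, HISAT2 2.2.1, DESeq2 1.30.1, FastQC 0.11.9 and R 4.0.5, with the build GRCm38. The sources used here do not give settings, annotation, strandedness or the handling of multi-mapped reads. The authors deposited whole read counts for 55401 genes. They also deposited a normalized signal for 23239 genes. It was multiplied by a factor for each library, the median ratio of count to signal. This gave whole reads for 100% of values (within 0.001 of a read), and 0 differed from the counts. The edgeR run on these reads called 1 gene, but it repeats the main fit and is no separate check.

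Symbols came from GENCODE M21 on GRCm38 for 55141 identifiers. Genes passing filterByExpr were TMM-normalised and fitted by group alone (glmQLFit and glmQLFTest of edgeR 4.0.16, R 4.3.3), with Benjamini-Hochberg adjustment over 16260 genes and a threshold of 0.05. The script was tested on simulated data. CPM use TMM; lengths are merged exons. Alternatives used DESeq2 1.42.0, limma 3.58.1, other factors, other filters, the replicate number as a block and leaving out each library. With 3 libraries a group, the smallest p an exact permutation test allows is 0.1. Chi-square per degree of freedom between libraries of a group was 31.4 to 36.5, more than counting noise alone gives. No library was therefore a resequenced copy of another in its group. Separate libraries made from the same animal are not excluded by it.

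The members, lists and tests were chosen with earlier results of these data known. Named are the 10 genes, their other gelsolin relatives, from each other list the 2 non-members with the smallest p and the most abundant one, the 2 measured neighbours of Scin on either side, and the 3 genes nearest to it in profile. Genes shared by several lists count in each.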

Additional observations from a re-analysis of the deposited data

How the results depend on the processing

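Scin was the only gene called in edgeR and stayed called under every alternative run, with log2 fold changes of -2.73 to -2.5 when 1 library was left out. The number of genes called was 91 with DESeq2 (44 higher and 47 lower in CKO), 3 with no filter (Mcm6, Scin and Trim10) and 1 to 2 when 1 library was left out (Gm7292 joined Scin without CTRL 3). DESeq2 also called Kcnj2 and Socs3; the cause was not tested. Deviations of same-numbered samples from their group means correlated at -0.0193, 0.0712 and 0.0235 for numbers 1, 2 and 3. CKO 2 and CTRL 2 each correlated most with the other, and CTRL 3 correlated most with CKO 3. With 3 samples a group these values cannot show whether the numbers pair the samples. With the replicate block 1 gene was called, Scin, at -2.59. Tmod4 reversed to 0.48 in limma-voom, 0.28 in limma-trend and 0.36 with the replicate block, Etv1 to -0.0302 in limma-voom, and Limk1 to -0.000979 in DESeq2 and -0.000646 with median-of-ratios factors. Leaving out 1 library turned the sign of 11 named genes, with ranges of -0.0412 to 0.16 for Gsn, -0.17 to 0.000906 for Cfl2, -0.0278 to 0.12 for Vill, -0.0983 to 0.0856 for Flii, -0.23 to 0.065 for Svil, -0.0971 to 0.0258 for Dbnl, -0.0162 to 0.17 for Eps8l2, -1.37 to 1.66 for Tmod4, -0.12 to 0.30 for Etv1, -1.54 to 0.0444 for Gm7008 and -0.31 to 0.46 for Limk1. The Scin share of the family per longest transcript was 0.203% in CKO and 1.26% in CTRL. Among genes that kept their sign, leaving out 1 library gave ranges of -0.14 to -0.0532 for Dstn, -0.15 to -0.0688 for Capza2, 0.0397 to 0.15 for Twf1, 0.0193 to 0.22 for Add1, 0.0114 to 0.25 for Limk2, -0.55 to -0.21 for Ssh2 and -0.41 to -0.15 for Pfn2. The 95% intervals of the other 9 genes bound their changes, and a smallest detectable change was not estimated. Genes averaging under about 5 CPM in both groups (Avil, Eps8l1, Limk1, Tmod4, Kcnj2, Rapgef5 and Gm7008) rest on few reads.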
